A study of Mus musculus with 6 samples.

Results

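S100 proteins are small calcium-binding proteins of vertebrates with paired EF-hand loops. The S100 genes described were the 10 of a named list: S100a1, S100a4, S100a6, S100a8, S100a9, S100a10, S100a11, S100a13, S100b and S100g. Probe sets annotated to more than 1 symbol were set aside, and where a gene had several left, the brightest of them on average across the 6 arrays stood for it. By that rule 9 of the 10 had a value among 12393 genes in all. S100a11 was not read, since its 1 probe set is annotated to 3 symbols, S100a11 itself, S100a11-ps and Gm12854.

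The study measured whole lung of male wildtype C57BL/6J mice aged 8 to 10 weeks on Affymetrix MOE430A arrays, with 3 mice and 3 arrays in each group, to describe gene expression in the fibrotic phase after bleomycin. Mice A, B and C received saline and mice D, E and F received bleomycin, a DNA-damaging drug used to model lung fibrosis, at 1 mg/kg in 50 µl of saline. All lungs were taken at day 14, with the trachea and large airways cut away, and the labels give both an oropharyngeal and an intratracheal route. Values are log2 expression values made with RMA, which condenses the probes of a probe set to 1 number. A difference is bleomycin minus saline in log2 units.

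Inside cells, most but not all S100 proteins form dimers that bind calcium and then dock on target proteins such as annexins, myosin and p53. Several members also leave the cell and act as alarm signals, above all the S100A8 and S100A9 pair (calprotectin), which makes up a large share of the cytosolic protein of neutrophils and is sensed by TLR4 and by RAGE, the product of Ager. In the lung, RAGE is abundant on type 1 alveolar cells. S100a4, also known as fibroblast-specific protein, is expressed by macrophages and other leukocytes as well.

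The arrays within a group correlated at 0.986 to 0.995 over all probe sets, and arrays of different groups at 0.965 to 0.985. The defining lung markers were bright on every array, with Sftpc of type 2 cells between 13.98 and 14.38 and Scgb1a1 of club cells between 14.03 and 14.42. Mouse B goes against its label as male: Xist stood at 11.40 on it and between 7.23 and 7.88 on the other 5 arrays, and the Y-linked Eif2s3y at 4.05, against 7.23 to 8.02. Each result on an S100 gene that changed its call or direction is therefore given without mouse B as well. In homogenised lung, fewer cells of a type and less RNA per cell cannot be told apart. No detection calls were used, so background could not be examined.

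Of the 9 S100 genes, 1 rose and 0 fell at an adjusted p of 0.05 in limma, where 5.60% of all genes passed (3.70% higher and 1.90% lower). With 1 mouse left out that share of all genes was 1.49% (without A) to 4.44% (without E), with 163 to 385 genes higher against 458 with all arrays, and 22 to 165 lower against 236. At an unadjusted p of 0.05, 3 of the 9 passed, all higher, against 22.7% of all genes in either direction and 11.7% upward. The 3 bleomycin lungs lay wholly above the 3 saline lungs for 3 members, S100a1, S100a4 and S100a10, and wholly below for 0, against 27.9% of all genes separated in either direction and 13.3% upward. The median difference was 0.20 over the 9 genes and -0.04 over all genes. Of the 9 differences 5 were above 0, against 43.0% over all genes.

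**Figure D1:**
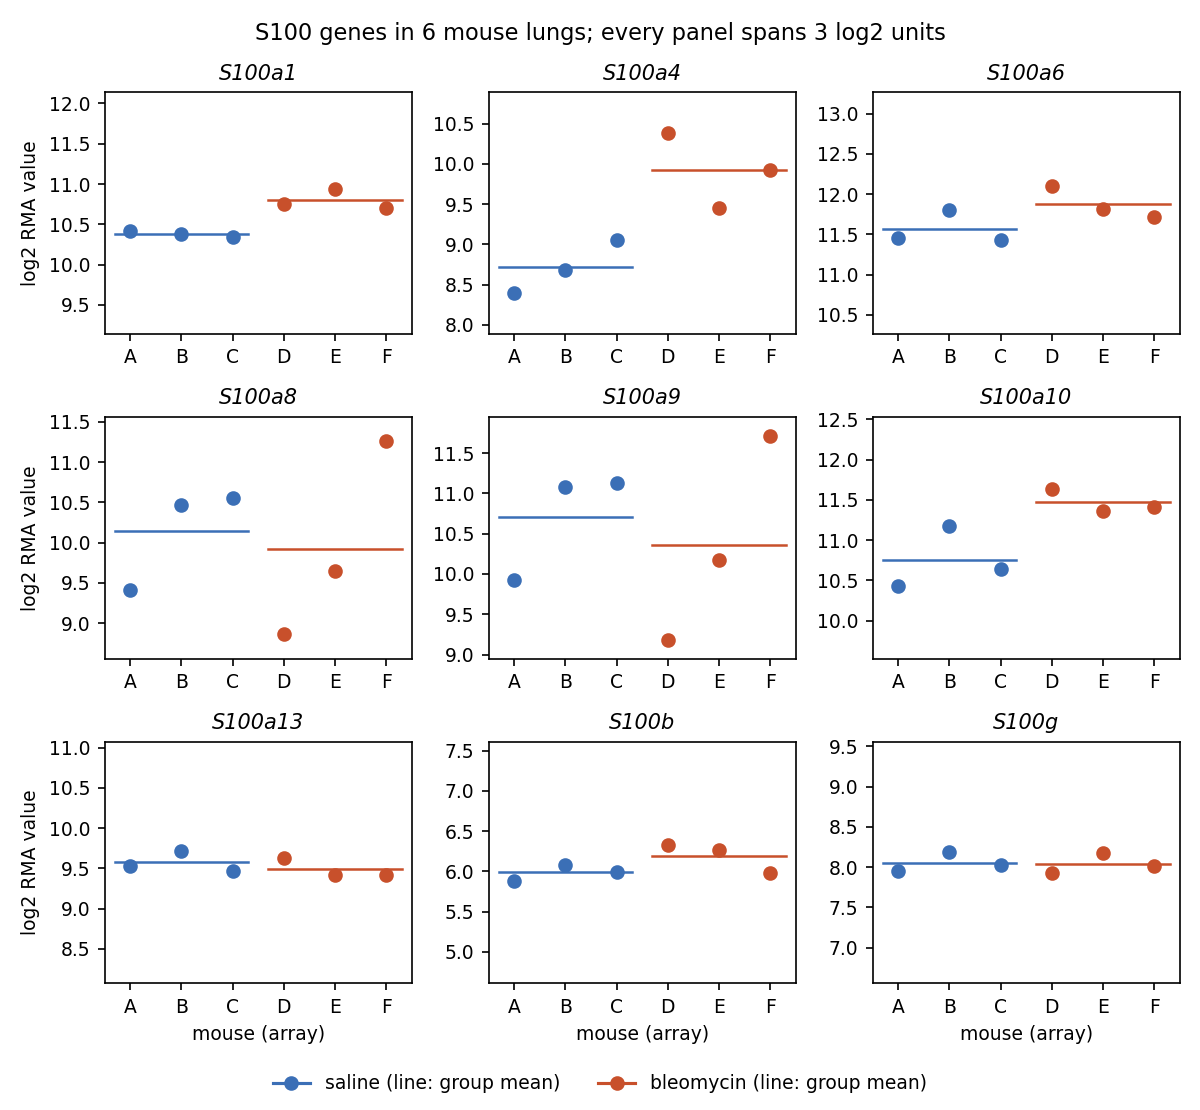
Log2 RMA values (y axis, each panel spanning 3 log2 units) of the 9 measured S100 genes in each mouse (x axis; A to C saline, D to F bleomycin), with group means as lines. S100a4, S100a10 and S100a1 separate the groups, while S100a8 and S100a9 range over 2.40 and 2.54 log2 units among the 6 lungs with the groups intermixed.

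The promoters of 3 members are printed because the results turn on them: S100a4 is the gene that rose, and S100a8 and S100a9 are the pair that varied together from mouse to mouse. The sequences come from RefSeq on build GRCm38.p6, cover 240 bases before the annotated start and the first 10 bases from it, and run 5′ to 3′ on the strand of the gene. Capitals mark matches on either strand to the TATA box letters TATAAA, to the PU.1-type letters GAGGAA and to the C/EBP-type letters TTNNGNAA.
S100a4, plus strand, chr3:90603530-90603779: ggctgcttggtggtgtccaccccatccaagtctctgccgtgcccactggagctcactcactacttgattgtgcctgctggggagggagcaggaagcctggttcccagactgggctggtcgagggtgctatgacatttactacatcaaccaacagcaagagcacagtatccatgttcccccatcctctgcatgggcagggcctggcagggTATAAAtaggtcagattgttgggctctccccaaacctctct
S100a8, plus strand, chr3:90668831-90669080: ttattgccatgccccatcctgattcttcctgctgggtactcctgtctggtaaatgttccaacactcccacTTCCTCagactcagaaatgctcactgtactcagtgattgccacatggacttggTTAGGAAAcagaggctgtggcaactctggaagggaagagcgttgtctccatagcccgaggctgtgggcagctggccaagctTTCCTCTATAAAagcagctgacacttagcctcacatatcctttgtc
S100a9, minus strand, chr3:90695712-90695961: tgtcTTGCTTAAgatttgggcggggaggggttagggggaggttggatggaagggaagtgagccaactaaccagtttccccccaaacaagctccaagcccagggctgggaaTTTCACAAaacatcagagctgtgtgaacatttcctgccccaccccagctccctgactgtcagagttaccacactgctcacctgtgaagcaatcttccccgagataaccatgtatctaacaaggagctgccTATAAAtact

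The TATAAA letters lie just before the annotated start in S100a4 (bases -31 to -26) and S100a8 (-30 to -25). In S100a9 and S100g they cover bases 1 to 6 from the annotated start. They were found in 4 of the 9 members listed in the promoter table (all except S100a10), against 13.6% of all 32851 windows of 300 bases. In S100a8 a GAGGAA match on the opposite strand directly adjoins the TATA letters, so both run together in the capitals, and another lies at -170 to -165. GAGGAA stood in 3 of 9 members (S100a4, beyond the printed stretch, S100a8 and S100a11), against 28.3% of all windows. TTNNGNAA stood in S100a8, S100a9 and S100g, against 40.7% of windows. The AP-1-type letters TGANTCA stood in S100a11 alone of the 9, against 7.81%. A match describes letters and not a bound site.

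S100a4 encodes a dimer that binds non-muscle myosin and is linked to cell motility. Its values were 8.40, 8.69 and 9.06 in saline lungs A, B and C, and 10.39, 9.46 and 9.93 in bleomycin lungs D, E and F. All bleomycin lungs were above all saline lungs, with a gap of 0.40 between the nearest, mice C and E. The mean went from 8.72 ± 0.33 to 9.92 ± 0.46 (SD, n = 3 each), a rise of 1.21 ± 0.24 (SE, 95% interval 0.65 to 1.76, 2.31-fold, limma adjusted p = 0.0318). In the order of all 12393 genes by difference it stood at place 140 from the top. The direction held with each mouse left out, with differences of 0.98 to 1.44. The adjusted p was 0.106 without mouse A, 0.0766 without B, 0.0631 without D and 0.093 without F, and the call held without C (0.0411) or E (0.0159).

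The 3 genes whose profile over the 6 arrays, centred on the saline mean, lay closest to that of S100a4 were Gpr35, Tfpi2 and Tnfrsf12a, at root mean square distances of 0.10, 0.12 and 0.16 log2 units. Gpr35 encodes an orphan-class G protein-coupled receptor, Tfpi2 a secreted inhibitor of serine proteases and Tnfrsf12a the receptor of the cytokine TWEAK. Like S100a4, each was highest in mouse D and lowest among the bleomycin lungs in mouse E. The 3 were chosen for likeness over the same 6 arrays, so this shared order largely follows from the choice. Gpr35 was 7.91, 7.19 and 7.50 in D, E and F, and 6.18, 6.41 and 6.64 in A, B and C.

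Of 13 measured monocyte and macrophage markers 7 rose and 0 fell, and their mean level was 9.73 to 10.02 in saline and 10.75 to 11.01 in bleomycin lungs. The 4 largest rises were those of the lysosomal marker Cd68 (2.68 ± 0.25, SE), the immunoglobulin receptor Fcgr3 (1.74 ± 0.16), the lysosomal protease Ctss (1.46 ± 0.21) and the macrophage surface receptor Adgre1 (1.25 ± 0.13), and all 4 passed in each of the 6 fits with a mouse left out. The other 6 markers did not pass, among them the lysozyme gene Lyz2 (0.14 ± 0.11), the scavenger receptor Marco (0.46 ± 0.31) and Csf1r, the receptor of macrophage growth factor (0.27 ± 0.13), for which 2 of 3 probe sets passed, as did their mean (adjusted p 0.0186). Of 12 fibroblast and matrix markers 5 rose and 1 fell, with mean levels of 10.31 to 10.60 in saline and 10.76 to 11.20 in bleomycin lungs. Col1a1, the main fibrillar collagen chain, rose by 2.10 ± 0.35 (adjusted p 0.0619 without mouse F). Fn1, fibronectin, rose by 1.93 ± 0.20. The collagen Col3a1 rose by 1.12 ± 0.19 (0.0607 without mouse A and 0.0619 without F). Lum, a collagen-binding proteoglycan, rose by 1.24 ± 0.23 and lost its call without mouse A, B, D or F (adjusted p 0.0617 to 0.0932). The lipofibroblast factor Tcf21 fell by 0.80 ± 0.16 and lost its call without A, B, D, E or F (0.0589 to 0.0892). The surface glycoprotein Thy1 differed by 0.59 ± 0.15 (adjusted p 0.0677, and 0.0487 in a fit on 1 mean per gene, which adjusts over 12393 genes). The part of either marker list in the S100a4 difference was not tested.

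Non-muscle myosin heavy chain Myh9, the best known target of S100a4, differed by -0.06 ± 0.18 (SE, adjusted p = 0.872), a sign that turned without mouse B (0.09) or F (0.03) and with its probe sets averaged (0.13). Of 18 measured cytoskeletal and nuclear targets of S100 proteins 0 rose and 1 fell, and the median difference was -0.03. At an unadjusted limma p of 0.05, 4 were higher and 3 lower, against 22.7% of all genes in either direction and 11.7% upward. The one that fell was Ahnak, a large scaffold bound by the S100A10 and annexin A2 complex, by 0.59 ± 0.13 (adjusted p = 0.0432). Of its 4 probe sets 1 passed, and their mean differed by -0.22 (adjusted p = 0.236). The call was also lost without A, C, D, E or F (0.0833 to 0.127) and after centring on ribosomal protein genes (0.0635). Capza1, which caps actin filaments, differed by 0.62 ± 0.15 (SE, adjusted p = 0.0612) and passed with array weights (0.0499) and with its probe sets averaged (0.0172).

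S100a10 encodes p11, which forms a tetramer with annexin A2 at the cell membrane and there serves as a plasminogen receptor. It stood at 10.42, 11.17 and 10.64 in A, B and C and at 11.63, 11.36 and 11.41 in D, E and F. The groups did not overlap, and mouse B was the highest saline lung. The difference was 0.72 ± 0.19 (SE, 95% interval 0.29 to 1.15, adjusted p = 0.0697). Without mouse B it was 0.93 (adjusted p = 0.0205), and without each of the others it stayed at 0.56 to 0.77 and did not pass. Its other probe set, of the x_at kind that can pick up related sequences, differed by 0.18 ± 0.14 (SE) with overlapping groups. The mean of both differed by 0.45 (adjusted p = 0.0622).

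**Figure D2:**
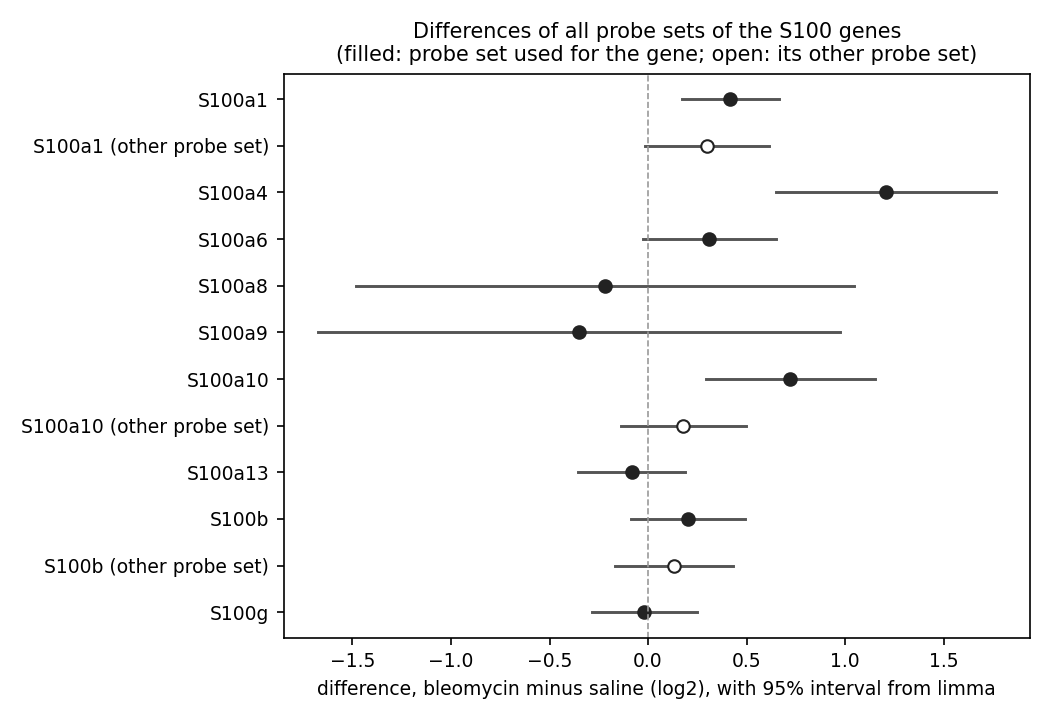
Differences, bleomycin minus saline in log2 units (x axis), of all 12 probe sets of the 9 measured S100 genes, with the 95% interval from limma as lines. Filled points are the probe sets used, and open points the other probe sets of S100a1, S100a10 and S100b, each nearer to 0 than the one used.

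Among 8 measured annexins, which dock on S100 dimers, 1 rose and 0 fell, with a median difference of 0.15. Anxa1, an anti-inflammatory annexin that binds S100A11, rose by 0.71 ± 0.15 (SE, adjusted p = 0.0341), and lost its call without A, B, C, D or F (0.0682 to 0.117), after repeated quantile normalization (0.0589) and after centring on ribosomal protein genes (0.0773). Anxa2, the partner of S100a10, was 12.77, 12.72 and 12.91 in saline lungs, with a mean of 12.80 ± 0.10, and had a mean of 13.14 ± 0.12 in bleomycin lungs (SD, n = 3 each). These groups did not overlap, and the difference was 0.34 ± 0.11 (SE, adjusted p = 0.136). Of 7 measured plasmin system genes 0 rose and 0 fell in limma. At an unadjusted limma p of 0.05, 2 were higher and 0 lower, against 22.7% of all genes in either direction and 11.7% upward. Plat, tissue plasminogen activator, differed by 0.52 ± 0.14 (SE, adjusted p = 0.0768) and passed without mouse E (0.0385). The plasminogen receptor Plgrkt had the largest difference, 0.57 ± 0.16 (SE, adjusted p = 0.087), and the urokinase receptor Plaur differed by -0.03 ± 0.13 (SE, adjusted p = 0.907), a sign that turned without mouse B (0.04) or D (0.05).

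S100a6, or calcyclin, binds the ubiquitin ligase adaptor Cacybp. It was 11.46, 11.80 and 11.44 in saline and 12.10, 11.82 and 11.71 in bleomycin lungs, so that F lay below B. The difference of 0.31 ± 0.15 (SE, 95% interval -0.03 to 0.65, adjusted p = 0.273) did not pass. Cacybp differed by 0.52 ± 0.14 (SE, adjusted p = 0.0804) and passed without mouse E (0.0476).

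S100a1 is the main S100 protein of heart muscle, where it tunes the ryanodine receptor and the calcium pump of the sarcoplasmic reticulum. It was 10.41, 10.38 and 10.34 in saline and 10.75, 10.94 and 10.70 in bleomycin lungs. The groups did not overlap, and the saline lungs lay within 0.07 of each other. The difference was 0.42 ± 0.11 (SE, 95% interval 0.17 to 0.67, adjusted p = 0.0693), and it did not pass with any mouse left out (0.113 to 0.174). The probe set used is of the s_at kind, which can match several transcripts. The other probe set of S100a1 differed by 0.30 ± 0.14 (SE), with overlapping groups. Mouse lung contains heart muscle in the walls of its pulmonary veins. Of 12 heart muscle markers 0 rose and 0 fell in limma (0 higher and 8 lower at an unadjusted p of 0.05). Over all genes 22.7% passed at that unadjusted p in either direction, and 11.7% upward. On the probe sets used all 12 differences were below 0, while 43.0% of all genes had one above 0. The median was -0.61, against -0.04 over all genes. The part of heart muscle in the S100a1 difference was not tested. Myh6, the cardiac myosin heavy chain, had the largest difference, -1.42 ± 0.39 (SE, adjusted p = 0.0811, and 0.0205 without mouse B). The other probe set of Myh6 differed by 0.05. Among 11 measured calcium handling partners 0 rose and 0 fell in limma (0 higher and 1 lower at an unadjusted p of 0.05), with a median of -0.19. The largest difference was that of the calcium pump gene Atp2a3, -0.73 ± 0.36 (SE, adjusted p = 0.29). Ryr2, the cardiac ryanodine receptor, which is on both lists, was 5.59, 5.39 and 5.69 in saline and 4.76, 4.92 and 5.24 in bleomycin lungs. These groups did not overlap, and the difference of -0.58 ± 0.15 (SE, adjusted p = 0.0652) passed only with the trended robust prior (0.0375). The mean of Ryr2 over the 6 arrays was low, at 5.26, and background could not be examined. The other probe set of Ryr2 differed by -0.12.

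S100a13 takes part in the release of FGF1 and interleukin 1 alpha, which lack a signal peptide. It was 9.54, 9.72 and 9.46 in saline and 9.63, 9.42 and 9.42 in bleomycin lungs. The groups overlapped, and the difference was -0.08 ± 0.12 (SE, 95% interval -0.35 to 0.19, adjusted p = 0.727). Its cargo Fgf1 fell by 0.89 ± 0.14 (SE, adjusted p = 0.0141) in 1 of its 2 probe sets, with an adjusted p of 0.0574 without mouse A and 0.0576 without F. S100a13 and S100a1 face away from each other on opposite strands, with annotated starts 105 bases apart and 204 bases shared by their promoter windows. The difference was -0.08 for S100a13 and 0.42 for S100a1.

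S100b, the S100 protein of glia, fat cells and cartilage, was 5.89, 6.08 and 6.00 in saline and 6.33, 6.26 and 5.98 in bleomycin lungs. The difference was 0.20 ± 0.13 (SE, adjusted p = 0.4), and its other probe set differed by 0.13 ± 0.13 (SE). Both probe sets were dim, with means of 6.09 and 5.23 over the 6 arrays, at percentiles 26.8 and 13.9 of all probe sets. Of 9 measured glial, fat and cartilage markers 0 rose and 1 fell, Pmp22 of peripheral myelin and other tissues, by 0.58 ± 0.10 (SE, adjusted p = 0.0204), with its call lost with any single mouse left out (0.0522 to 0.0716). S100g, which encodes calbindin D9k, a calcium carrier of epithelia, was 7.96, 8.18 and 8.03 in saline and 7.93, 8.18 and 8.01 in bleomycin lungs. All saline values fell within 0.23 and all bleomycin values within 0.25 of each other, and the difference was -0.02 ± 0.12 (SE, 95% interval -0.29 to 0.25, adjusted p = 0.945). It was 0.05 without mouse B and 0.04 without D.

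S100a8 and S100a9 encode the subunits of calprotectin. S100a8 was read by a probe set of the s_at kind, as S100a1 was. S100a8 was 9.41, 10.46 and 10.55 in saline lungs A, B and C, and 8.86, 9.64 and 11.26 in bleomycin lungs D, E and F. S100a9 was 9.92, 11.08 and 11.12 in A, B and C, and 9.18, 10.17 and 11.72 in D, E and F. Both genes were lowest in mouse D and highest in mouse F, both bleomycin lungs, with the saline lungs between.

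The pair placed the 6 lungs in the same order, D, A, E, B, C and F from low to high. The difference between groups was -0.22 ± 0.55 for S100a8 (SE, 95% interval -1.48 to 1.05, adjusted p = 0.854) and -0.35 ± 0.58 for S100a9 (SE, 95% interval -1.68 to 0.98, adjusted p = 0.77). The intervals therefore allow changes of over 1 log2 unit downward and, for S100a8, upward. Without mouse D the differences were 0.31 and 0.24, and without F -0.89 and -1.03. Without mouse B they were -0.06 and -0.16. The SD within groups was 0.98 for S100a8 and 1.02 for S100a9, against a median of 0.16 over all genes, and they ranked 16 and 15 from the largest of 12393 genes.

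**Figure D3:**
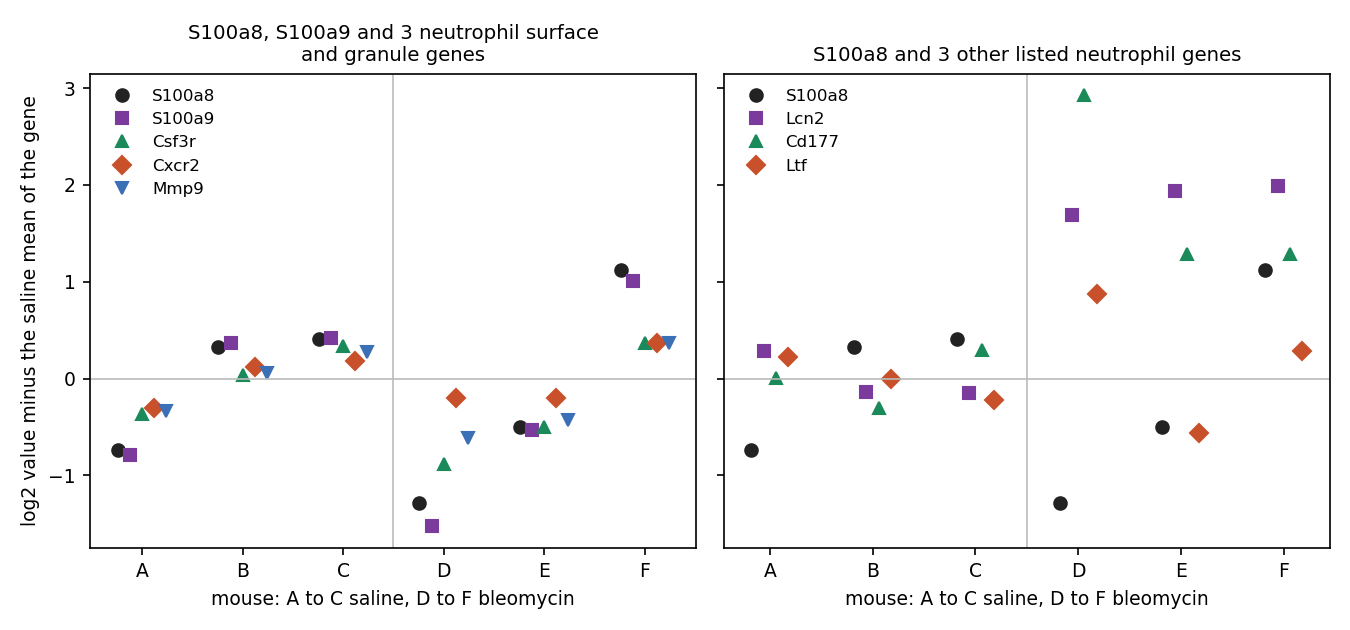
Log2 value minus the saline mean of the gene (y axis) in each mouse (x axis) for S100a8, S100a9, Csf3r, Cxcr2 and Mmp9 (left) and for S100a8, Lcn2, Cd177 and Ltf (right). The 3 marker genes on the left were chosen after their values were seen, from the 6 of 14 markers that were lowest among saline lungs in A and highest among bleomycin lungs in F; on the right Lcn2 and Cd177 lie above 1 in all bleomycin lungs, whatever the level of S100a8.

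The neutrophil markers were set beside the pair mouse by mouse. Csf3r, the receptor of the neutrophil growth factor G-CSF, was 8.68, 9.09 and 9.39 in A, B and C and 8.17, 8.55 and 9.42 in D, E and F. After S100a9 itself it was the gene closest in profile to S100a8, at a root mean square distance of 0.40 log2 units, against 0.11 for S100a9; this search was added after the values of the pair had been seen. Next came Cd79b (0.45), a B cell receptor chain, the neutrophil gelatinase Mmp9 (0.46) and the myeloid gene Slfn4 (0.46). For S100a9 the nearest after S100a8 were Csf3r (0.43), Cd79b (0.44), Slfn4 (0.46), Mndal (0.48) and the B cell gene Ms4a1 (0.50). Of 14 measured neutrophil markers 10 were lowest among saline lungs in A, 8 were highest among bleomycin lungs in F, and 6 were both. Only 4 of the 14 were lowest among bleomycin lungs in D, as the pair was, and 2, Csf3r and Mmp9, had all 3 traits. The share of all genes with these traits was not counted, so these counts have no reference. Some of the markers were nearly flat, so that their order says little. The 6 arrays spanned 0.16 log2 units for Prtn3, 0.29 for Elane and 0.35 for Ctsg, against 2.40 for S100a8. Prtn3 and Ctsg also had low means over the 6 arrays, 6.04 and 6.34, and background could not be examined.

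Between the groups, of the 14 neutrophil markers 2 rose and 0 fell, and the median difference, nearly flat markers included, was 0.02. The mean level was 7.26 to 7.54 in saline and 7.46 to 7.82 in bleomycin lungs. The 2 that rose were Lcn2, lipocalin 2, which epithelium also makes, by 1.87 ± 0.15 (SE, adjusted p = 7.87e-04, and it passed in each of the 6 fits with a mouse left out), and Cd177, a neutrophil surface protein, by 1.83 ± 0.40 (SE, adjusted p = 0.0416). Cd177 was highest in mouse D (9.65), the lung with the lowest S100a8, and lost its call without A, B, C or F (0.0581 to 0.116). The granule genes Ngp (-0.32 ± 0.15, SE) and Ltf (0.20 ± 0.31, SE, and -0.14 without mouse D) did not pass, nor did Csf3r (-0.34 ± 0.30, SE). The part of neutrophils in the S100a8 and S100a9 values was not tested.

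The receptors and adaptors that sense extracellular S100 proteins showed 2 rises and 1 fall among 10 measured genes, with a median difference of 0.17. Cd14, which hands ligands to TLR4, was 9.33, 9.28 and 9.61 in saline and 10.53, 10.30 and 10.29 in bleomycin lungs, a rise of 0.96 ± 0.13 (SE, adjusted p = 0.00686). Ly96, which encodes the TLR4 co-receptor MD-2, was 6.45, 6.56 and 6.78 in saline and 7.45, 7.62 and 7.61 in bleomycin lungs, a rise of 0.96 ± 0.12 (SE, adjusted p = 0.00522). Both passed in each of the 6 fits with a mouse left out. Tlr4 itself differed by 0.45 ± 0.14 (SE, adjusted p = 0.116) without overlap of the groups, and passed in the mean of its 2 probe sets (0.46, adjusted p = 0.0444). Ager, which encodes RAGE, differed by -0.19 ± 0.15 (SE, adjusted p = 0.499). Alcam, an adhesion molecule related to RAGE, fell by 0.66 ± 0.15 (SE, adjusted p = 0.043), and lost its call in the mean of its 2 probe sets (0.124) and without A, B, C, D or F (0.0786 to 0.138). Cd14 is also one of the macrophage markers that rose.

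**Figure D4:**
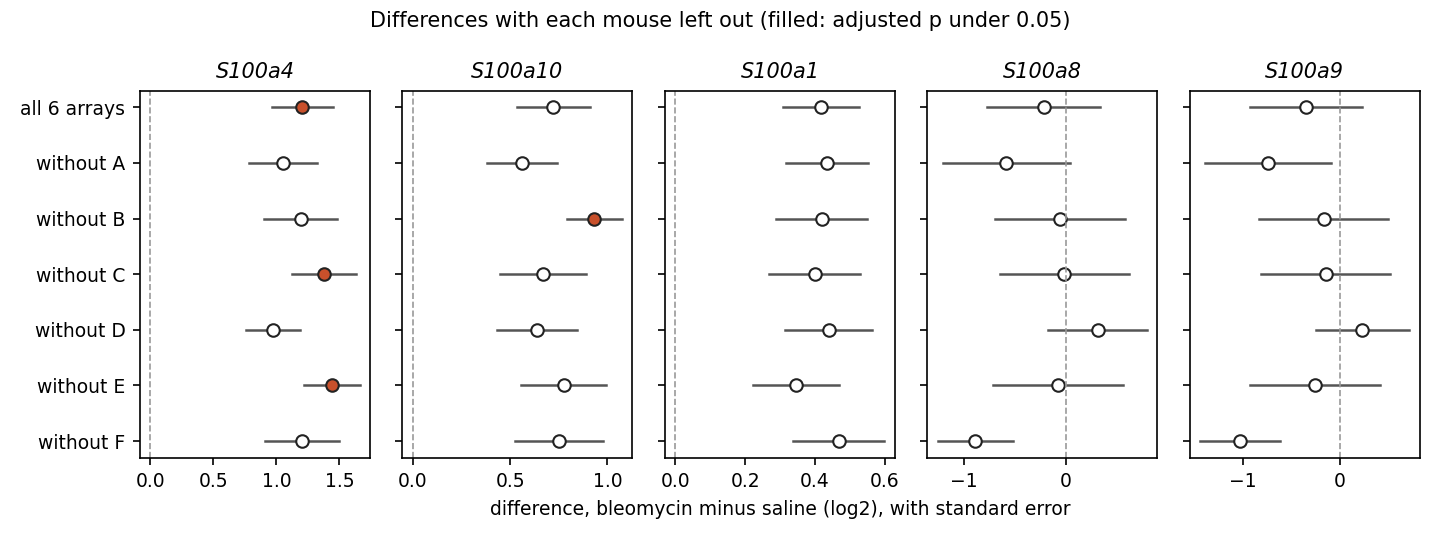
Differences, bleomycin minus saline in log2 units (x axis, scaled per gene), with their standard error, for S100a4, S100a10, S100a1, S100a8 and S100a9 with all 6 arrays and with each mouse left out (y axis). Filled points passed an adjusted p of 0.05; S100a4 stays between 0.98 and 1.44, while S100a8 and S100a9 turn positive without mouse D.

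Most S100 genes lie in 1 cluster on chromosome 3, and the measured neighbours did not all differ in the same direction. In chromosomal order on the RefSeq table the measured genes were S100a1, S100a13, S100a14, S100a16, S100a3, S100a4, S100a5, S100a6, S100a8, S100a9 and S100a10. S100a3 and S100a5, the nearest measured genes on either side of S100a4, differed by -0.07 ± 0.13 and -0.18 ± 0.14 (SE). S100a2, between S100a3 and S100a4, was not measured. The means of S100a3 and S100a5 over the 6 arrays were low, at 5.82 and 6.07, and background could not be examined. The sign for S100a3 turned without mouse B (0.01) and after repeated quantile normalization (0.0022). Beyond the 10 genes, 1 of 9 measured genes of the wider S100 family and its fused relatives rose and 0 fell. This was S100a14, an epithelial member, which was 7.20, 7.08 and 6.77 in saline and 8.99, 8.18 and 7.82 in bleomycin lungs, a rise of 1.31 ± 0.27 (SE, adjusted p = 0.0341). Its groups did not overlap, and its call was lost without A, B, C or E (0.0537 to 0.103).

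**Figure D5:**
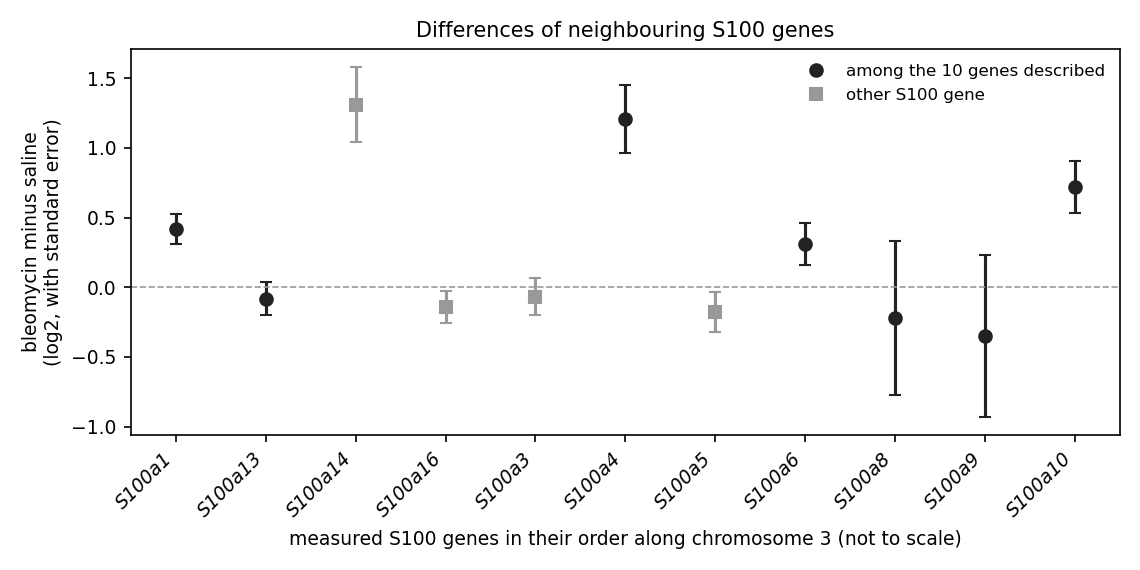
Differences, bleomycin minus saline in log2 units with standard errors (y axis), of the measured S100 genes in their order along chromosome 3 (x axis, not to scale). S100a14 and S100a4 stand at 1.31 and 1.21. Their nearest measured neighbours S100a13, S100a16, S100a3 and S100a5 lie between -0.18 and -0.07 (S100a3 at 0.0022 after repeated quantile normalization). The values of S100a3 and S100a5 were low.

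Other EF-hand calcium binders were set beside the family. Of 15 measured genes 0 rose and 0 fell in limma, with a median difference of 0.12. At an unadjusted limma p of 0.05, 3 were higher and 1 lower, against 22.7% of all genes in either direction and 11.7% upward. The largest difference was that of the calmodulin-like gene Calml4, -0.67 ± 0.16 (SE, adjusted p = 0.0579). It passed without mouse E (0.0225), without dim probe sets (0.0471), after centring on ribosomal protein genes (0.0341) and in the fit on 1 mean per gene (0.0418). Rcn3, a calcium binder of the endoplasmic reticulum, differed by 0.52 ± 0.12 (SE, adjusted p = 0.0515) and passed with array weights (0.0237) and in the fit on 1 mean per gene (0.0335). Epithelial and endothelial markers had mostly negative differences, and their part in the S100 values was not tested. Of 11 type 1 and type 2 markers 0 rose and 1 fell (median -0.30), Hopx by 0.44 ± 0.10 (SE, adjusted p = 0.0466), whose call was lost without dim probe sets (0.0533) and with any mouse left out (0.0822 to 0.16). Cav1 of type 1 cells differed by -0.39 ± 0.10 (SE, adjusted p = 0.0644) and passed with array weights (0.039), after repeated quantile normalization (0.0374) and in the fit on 1 mean per gene (0.0391). Of 7 club and ciliated cell markers 0 rose and 2 fell (median -0.44), the ciliary gene Tppp3 by 1.02 ± 0.20 (SE) and the club cell cytochrome Cyp2f2 by 0.66 ± 0.15 (SE). Tppp3 lost its call without A, D or F (0.0684 to 0.091). Cyp2f2 lost it without A, B, C, D or F (0.0639 to 0.122), after centring on ribosomal protein genes (0.0531) and after repeated quantile normalization (0.0545). The secretory gene Scgb3a1 differed by -0.56 ± 0.16 (SE, adjusted p = 0.0823) and passed without mouse C (0.0484). Of 8 endothelial markers 0 rose and 1 fell (median -0.29), the VEGF receptor Kdr, by 0.86 ± 0.14 (SE, 0.0584 without A and 0.0508 without F). Without mouse B 2 passed as lower, Kdr and the angiopoietin receptor Tek (-0.77, adjusted p = 0.0436, against -0.61 and 0.0794 with all arrays).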

How the data were processed

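The deposited table gives 1 log2 value for each probe set and array, which per the labels and the design text comes from RMA with quantiles normalization by the authors. Which software release and probe set definition they used is not given in the sources used here. That the scale is log2 was read from the span of the numbers. The table held 22690 probe sets, of which 64 controls were left out. Of the 22626 tested, 20380 had 1 symbol, 691 several and 1555 none in GEO's platform annotation, and 20351 matched the RefSeq table of GRCm38.p6 by Entrez ID, which was used for names and gene order.

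The group difference was fitted with limma 3.58.1 under R 4.3.3 (lmFit, then eBayes, without covariates), with Benjamini-Hochberg adjustment over all 22626 probe sets. Adjusted p-values are limma's throughout. A call is an adjusted p under 0.05, and SE is the moderated standard error. Lists are described by counts and medians, without a set test. The fit was tested on simulated data of 22626 probe sets for this comparison, with independent normal noise. Of 100 probe sets altered by 1 log2 unit it found 84, of 100 altered by 2 units it found 100, and 7 of its 191 calls were false.

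The members and lists were chosen with earlier results of these data known. Named genes were all members, up to 4 called genes per list with the largest differences (or the largest difference where none was called), a fixed set of partners and markers (Ager, Anxa2, Anxa1, Tlr4, Plaur, Ltf, Ngp, Csf3r, Cd68, Myh6 and Scgb1a1) and the 3 genes nearest to S100a4 in profile. Others (Cxcr2, Mmp9, Cd79b, Slfn4, Mndal, Ms4a1, Myh9, Cacybp, Tcf21, Sftpc, Lyz2, Marco, Csf1r, Thy1, Capza1, Ryr2, Plat, Rcn3, Cav1, Scgb3a1, Tek, Xist, Eif2s3y, S100a3, S100a5, S100a16, Prtn3, Elane, Ctsg, S100pbp, Hrnr, Tchh, Flg) were named after their values were seen. Alternatives were a filter on dim probe sets, array weights, a trended robust prior, quantile normalization done again, centring on genes of ribosomal proteins, the mean of all probe sets of a gene, an adjusted p of 0.01 and leaving out each array. Python 3.11.15 with matplotlib 3.10.9 drew the figures. Scanner files and scan dates were not used here, and the number of arrays limits the precision.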

Additional observations from a re-analysis of the deposited data

How the results depend on the processing

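Of 108 differences of the 9 S100 genes under the alternatives, 96 kept their direction and side of the threshold. The number of S100 genes called higher was 1 with all arrays, 2 with array weights (S100a4, and S100a10 at an adjusted p of 0.0479) and 0 at an adjusted p of 0.01. It ranged from 0 to 1 with 1 array left out: 0 without mouse A, D or F, and 1 without B, where the gene was S100a10 and not S100a4. The number of all genes called higher moved too, from 458 to 599 with array weights, 143 at an adjusted p of 0.01, 163 without A, 306 without B, 299 without D and 211 without F. The number called lower was 0 in every fit. Each difference that changed sign was below its SE with all arrays. With array weights the values were 0.17 for S100a8, 0.0585 for S100a9, 0.0328 for Plaur and 0.0552 for Cxcr2. The mean of all probe sets gave 0.131 for Myh9, and repeated quantile normalization 0.0022 for S100a3. With 1 array left out the ranges were -0.888 to 0.31 for S100a8, -1.03 to 0.24 for S100a9, -0.0882 to 0.0452 for S100g, -0.14 to 0.577 for Ltf, -0.111 to 0.0475 for Plaur, -0.20 to 0.0922 for Myh9, -0.191 to 0.0118 for S100a3 and -0.197 to 0.0848 for Cxcr2. The cause was not tested. Centring on ribosomal protein genes moved the median of all genes from -0.04 to -0.09. No paired analysis was possible because no replicate letter occurs in both groups.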
